A study of Mus musculus with 16 samples.

Results

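The growth factor receptors that build and maintain dendritic cells were followed through 4 dendritic cell populations of the mouse spleen, with and without the transcription factor Etv6. The set comprised 9 genes named by family (Flt3, Kit, Csf1r, Csf2ra, Csf2rb, Csf2rb2, Csf3r, Il3ra and Lifr), and all 9 had a row among the 24116 genes of the count table. All 9 were also among the 13790 genes that passed the filter on low counts. RNA was sequenced from sorted cells of 8 groups with 2 libraries each, 16 in all. The populations are labelled Dec205, pDC, Esamlo and Esamhi, and the genotypes WT and CKO, where CKO stands for Etv6-deficient cells. All groups were spleen cells with no treatment named in the labels. The labels and design text used here state neither the Cre driver nor the strain, age or sex of the mice, and they do not say whether replicate libraries stem from different mice. The p-values therefore measure the spread between libraries, which may be technical.

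Dendritic cells depend on cytokines that act through a small number of receptors. Flt3 and Kit are receptor tyrosine kinases for Flt3 ligand and stem cell factor, and Flt3 signalling drives dendritic cell development from bone marrow precursors to the spleen. Csf1r, a related kinase, binds CSF-1 and IL-34 and is best known from monocytes and macrophages. The other members are cytokine receptor chains without a kinase domain that signal through JAK kinases and STAT proteins. Csf2ra and Il3ra are the ligand-binding alpha chains for GM-CSF and IL-3. They pair with Csf2rb, the beta chain shared by GM-CSF, IL-3 and IL-5. In mice Il3ra also pairs with Csf2rb2, a second beta chain that serves IL-3. Csf3r binds G-CSF, and Lifr binds LIF and signals together with Il6st (gp130).

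The 2 beta chain genes are neighbours on chromosome 15 (GRCm38), Csf2rb2 on the minus strand at chr15:78282507-78305721 and Csf2rb on the plus strand at chr15:78325800-78351001. Their coding sequences in the GENCODE annotation of GRCm38, 2688 bases for Csf2rb and 2634 for Csf2rb2, were 95.2% identical over 2628 aligned positions. The longest identical stretch was 242 bases. This likeness matters for the main result below, because reads from identical stretches fit both genes. Of all 100-base windows of the Csf2rb transcript, 7.0% also occurred in Csf2rb2 transcripts, and of those of the Csf2rb2 transcript, 7.2% occurred in Csf2rb. For 50-base windows the shares were 18.4% and 19.0%. The 60-base stretch with the most differences, coding bases 304 to 363 of Csf2rb and 307 to 366 of Csf2rb2, is shown to let the eye find the 13 positions, in capitals, by which a read can be assigned.
Csf2rb: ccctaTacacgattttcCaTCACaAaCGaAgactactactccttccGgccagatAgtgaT
Csf2rb2: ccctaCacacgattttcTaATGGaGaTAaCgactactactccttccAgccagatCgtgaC

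Libraries held 14434287 to 20709265 counts, so that the floor of 3 counts corresponded to 0.144 to 0.228 CPM (counts scaled to a fixed library size, with TMM factors). The targeted gene Etv6 was at 337 and 375 CPM in WT and 205 and 219 CPM in CKO Dec205 cells, a fall of 0.75 on the log2 scale (adjusted p = 0.000996). In pDC it was at 346 and 352 CPM against 363 and 322 CPM, with no separation of the genotypes. In Esamlo cells it was at 426 and 512 against 370 and 362 CPM (adjusted p = 0.255), and in Esamhi cells at 492 and 451 against 390 and 434 CPM (adjusted p = 0.812). The labels do not say which part of the gene was deleted, so whole-gene counts do not check the deletion itself. The labels of the pDC libraries in particular had no support from Etv6 counts, and every direction given for pDC below is between libraries labelled CKO and WT. Xist, the RNA of the inactive X chromosome, was at 114 to 355 CPM in all CKO libraries and at most 1.44 CPM in WT, whereas Y-linked Ddx3y reached 105 to 222 CPM in every WT library and no more than 1.95 CPM in CKO libraries. Genotype and sex therefore cannot be told apart in any comparison of CKO with WT. Some defining markers were highest in the populations named for them. Xcr1 was at 1228 to 1786 CPM in Dec205 cells and at most 51.3 CPM elsewhere, and Ly75 at 143 to 238 CPM and at most 42.7 CPM elsewhere. Siglech was at 5410 to 5978 CPM in pDC and at most 6.82 CPM elsewhere. Esam was at 131 to 151 CPM in Esamhi and 7.99 to 13.7 CPM in Esamlo cells, with 33.2 and 32.5 CPM in WT Dec205 cells. Other genes of the same marker lists were not. Irf8, listed for Dec205 cells, was at 6515 to 6810 CPM in pDC against 3609 to 4398 CPM in Dec205 cells. Of genes listed for Esamhi cells, Cd4 was highest in pDC, and Hes1 and Nrp2 were higher in WT Esamlo than in WT Esamhi cells. In bulk RNA, fewer cells of a type and less RNA per cell cannot be told apart.

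Each WT population had its own receptor profile. Between WT populations, 7 of the 9 genes were called different (adjusted p under 0.05, edgeR quasi-likelihood test) for Dec205 against pDC, where 47.6% of all tested genes were called. The counts were 7 of 9 for Dec205 against Esamlo (34.2% of all genes), 6 of 9 for Dec205 against Esamhi (37.4%), 7 of 9 for pDC against Esamlo (45.7%) and 6 of 9 for pDC against Esamhi (47.1%). Esamlo and Esamhi cells differed in 3 of 9 (5.81% of all genes), namely Csf1r, Csf2rb2 and Lifr, all higher in Esamlo.

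**Figure D1:**
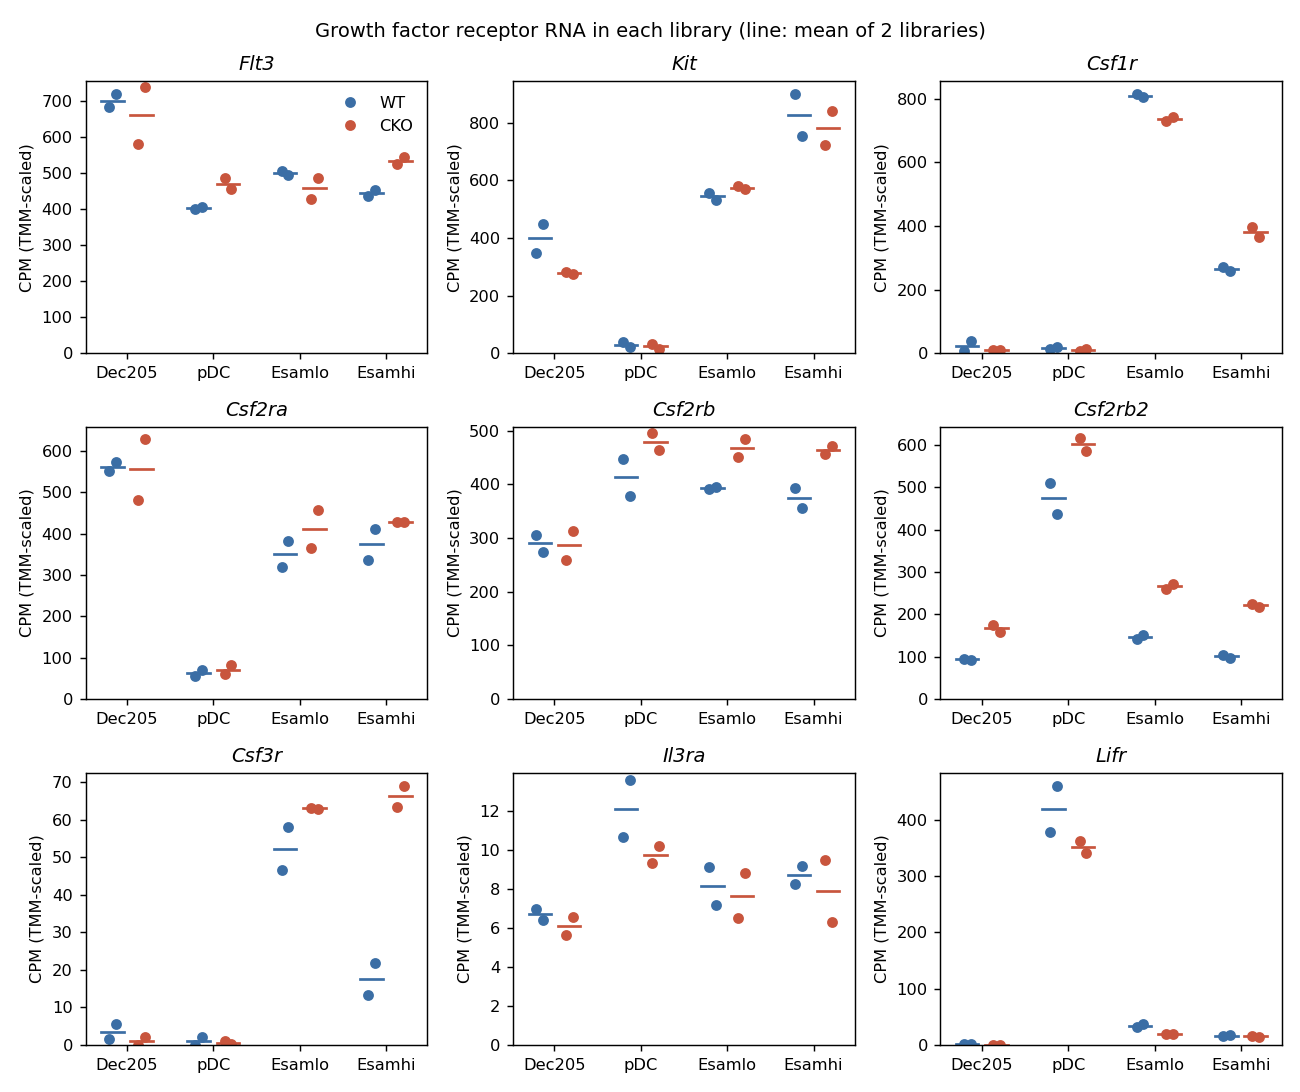
RNA of the 9 receptor genes in CPM on TMM-scaled library sizes, 1 panel per gene with its own axis, by population; points are libraries (blue WT, red CKO) and lines are means of 2 libraries. Kit and Csf2ra are low in pDC, Lifr is high in pDC, Csf1r and Csf3r are highest in Esamlo and Esamhi cells, and Csf2rb2 is higher in both CKO than in both WT libraries of every population.

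Flt3 was abundant in all populations. WT levels were 684 and 719 CPM in Dec205, 505 and 494 CPM in Esamlo, 436 and 453 CPM in Esamhi and 401 and 407 CPM in pDC. Dec205 cells stood above the other 3, 1.41-fold over Esamlo, the next in order (adjusted p = 0.00252). The libraries of the other 3 did not overlap either, but the neighbouring steps were not called: Esamlo was 0.17 above Esamhi on the log2 scale (SE 0.10, adjusted p = 0.444), and pDC 0.14 below Esamhi (SE 0.10, adjusted p = 0.284). Across both steps, pDC was 1.24-fold below Esamlo (adjusted p = 0.0267), a call that was lost without any 1 of the 4 libraries (adjusted p from 0.0775 to 0.0999).

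Kit separated pDC from the classical populations. WT levels were 900 and 753 CPM in Esamhi, 558 and 531 CPM in Esamlo, 349 and 450 CPM in Dec205, and 40.3 and 20.6 CPM in pDC. Dec205 cells held 13.1-fold more Kit RNA than pDC (log2 3.72, SE 0.35, adjusted p = 1.65e-06). Among the classical populations the ranges did not overlap, but the steps from Dec205 to Esamlo (adjusted p = 0.286) and from Esamlo to Esamhi (adjusted p = 0.329) were not called. The whole distance from Dec205 to Esamhi was 2.07-fold (adjusted p = 0.0172), and that call was lost without Dec205 WT replicate 1 (adjusted p = 0.10) or Esamhi WT replicate 1 (adjusted p = 0.102). Kit is also a defining gene of mast cells. The 10 mast cell and basophil genes summed to 24.0 to 27.9 CPM in Esamhi, 7.90 to 11.4 CPM in Esamlo, 3.92 to 11.8 CPM in Dec205 and 0.661 to 14.2 CPM in pDC WT libraries. In the 3 classical populations nearly all of this was Hdc, which makes histamine, at 22.9 and 27.8 CPM in WT Esamhi cells. Cpa3 and Fcer1a were at most 0.454 and 0.801 CPM in any library. In pDC WT replicate 1, which had the higher Kit level, Prss34 was at 9.56 CPM and Mcpt8 at 2.40 CPM. The 9 genes without Hdc summed to 13.5 CPM there and to 0.356 CPM in pDC WT replicate 2. In the pDC libraries labelled CKO, Kit was at 33.6 and 14.6 CPM, and these 9 genes summed to 0.264 and 0 CPM. The part of such cells in the Kit level was not tested.

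Csf1r was a gene of the Esam-sorted cells. It was at 815 and 804 CPM in Esamlo and 271 and 258 CPM in Esamhi WT cells, against 8.80 and 39.5 CPM in Dec205 and 12.8 and 19.9 CPM in pDC. The Esamhi level was 10.9-fold that of Dec205 (adjusted p = 8.91e-05). Esamlo cells were 3.06-fold above Esamhi cells (log2 1.61, SE 0.42, adjusted p = 0.0446), a call that was lost without any 1 of the 4 libraries (adjusted p from 0.137 to 0.253) although the log2 difference remained between 1.58 and 1.64. Dec205 and pDC were not called different (adjusted p = 0.331), and their order turned on Dec205 WT replicate 2: without it Dec205 stood 0.89 below pDC on the log2 scale (adjusted p = 0.0434), and without Dec205 WT replicate 1 it stood 1.27 above (adjusted p = 0.00201). Between these 2 libraries, most of the 12 macrophage genes were higher in replicate 2. C1qa was at 14.1 against 4.25 CPM in replicate 1, C1qb at 23.5 against 8.73 CPM and Spic at 20.2 against 10.6 CPM. Vcam1 was lower, at 113 against 141 CPM, as were the sparse Marco and Siglec1, and the 12 genes summed to 271 against 237 CPM. Cx3cr1 was at 10.1 against 0 CPM. Of the 11 monocyte genes, Ccr2, Cd14, Fcgr1, Ms4a4c, Ms4a6c and Plac8 were higher in replicate 2. Lyz2, at 649 against 826 CPM, and Ly6c2 were lower, and the 11 genes summed to 1142 against 1267 CPM. The part of such cells in the Csf1r level was not tested.

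Csf3r followed Csf1r across the 16 libraries (Pearson r = 0.92 of log2 CPM, a description over libraries that share 4 populations). WT levels were 46.5 and 58.1 CPM in Esamlo, 13.3 and 21.8 CPM in Esamhi, 1.52 and 5.55 CPM in Dec205, and 0 and 1.98 CPM in pDC. Esamlo exceeded Dec205 (log2 difference 3.87, adjusted p = 0.00607), whereas Esamlo against Esamhi (adjusted p = 0.338) and Esamhi against Dec205 (adjusted p = 0.0627) were not called.

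The alpha and beta chains of the GM-CSF and IL-3 receptors were distributed differently. Csf2ra was at 552 and 573 CPM in Dec205, 337 and 412 CPM in Esamhi, 321 and 382 CPM in Esamlo, and 56.0 and 69.3 CPM in pDC. Esamlo exceeded pDC 5.61-fold (adjusted p = 2.66e-07), Esamlo and Esamhi overlapped (adjusted p = 0.86), and Dec205 was 1.5-fold above Esamhi (adjusted p = 0.0191). The last call was lost without Dec205 WT replicate 2 (adjusted p = 0.068) or Esamhi WT replicate 1 (adjusted p = 0.168).

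Csf2rb varied least. Its WT levels were 447 and 379 CPM in pDC, 391 and 395 CPM in Esamlo, 393 and 356 CPM in Esamhi, and 306 and 274 CPM in Dec205. The first 3 overlapped, with adjusted p = 0.624 for pDC against Esamlo and 0.825 for Esamlo against Esamhi. Dec205 was 1.42-fold below pDC (adjusted p = 0.00183) and 1.29-fold below Esamhi (adjusted p = 0.0172), the latter lost without Dec205 WT replicate 2 (adjusted p = 0.125) or Esamhi WT replicate 1 (adjusted p = 0.13).

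Csf2rb2, the beta chain serving IL-3, was by contrast mainly a pDC transcript. WT levels were 510 and 437 CPM in pDC, 142 and 151 CPM in Esamlo, 105 and 96.3 CPM in Esamhi, and 94.7 and 92.7 CPM in Dec205. pDC exceeded Esamlo 3.23-fold (adjusted p = 1.55e-08). Esamlo exceeded Esamhi 1.45-fold (adjusted p = 0.00412; 0.055 without Esamhi WT replicate 2), and Esamhi and Dec205 were not called different (adjusted p = 0.42).

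Il3ra was low throughout, at 10.7 and 13.6 CPM in WT pDC, 8.26 and 9.18 CPM in Esamhi, 7.17 and 9.15 CPM in Esamlo, and 6.43 and 6.98 CPM in Dec205. Only pDC against Dec205 was called (1.81-fold, adjusted p = 0.0353), and without Dec205 WT replicate 1, Dec205 WT replicate 2 or pDC WT replicate 2 it was not (adjusted p = 0.0713, 0.122 and 0.177). The ranges of pDC and Esamhi did not overlap (adjusted p = 0.216).

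Lifr was the most population-restricted member. WT levels were 379 and 461 CPM in pDC, 31.1 and 37.5 CPM in Esamlo, 15.5 and 17.4 CPM in Esamhi, and 1.14 and 1.83 CPM in Dec205. Each step down this order was called: pDC was 12.3-fold above Esamlo (adjusted p = 7.06e-09), Esamlo 2.08-fold above Esamhi (adjusted p = 0.00209), and Esamhi 11-fold above Dec205 (adjusted p = 2.64e-07). Its signalling partner Il6st ran the other way in part, at 388 and 356 CPM in Esamlo and 298 and 236 CPM in Esamhi against 47.9 and 53.2 CPM in Dec205 and 55.8 and 47.9 CPM in pDC.

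Levels of different genes were compared per kilobase of transcript. In WT Dec205 cells Csf2ra was at 304 ± 7.82 CPM per kb (SD, n = 2), above Csf2rb at 59.1 ± 4.56 and Csf2rb2 at 19.8 ± 0.298. In WT pDC the order was turned, with Csf2ra at 33.9 ± 5.06 CPM per kb, Csf2rb at 84.3 ± 9.80 and Csf2rb2 at 99.9 ± 11. Il3ra lay far under both beta chains in each WT population, at 2.90 to 5.24 CPM per kb. Of the tyrosine kinases, Csf1r led in Esamlo (172 CPM per kb, Flt3 136, Kit 104), Kit in Esamhi (Kit 159, Flt3 122, Csf1r 56.3) and Flt3 in Dec205 (Flt3 192, Kit 76.6, Csf1r 5.14).

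**Figure D2:**
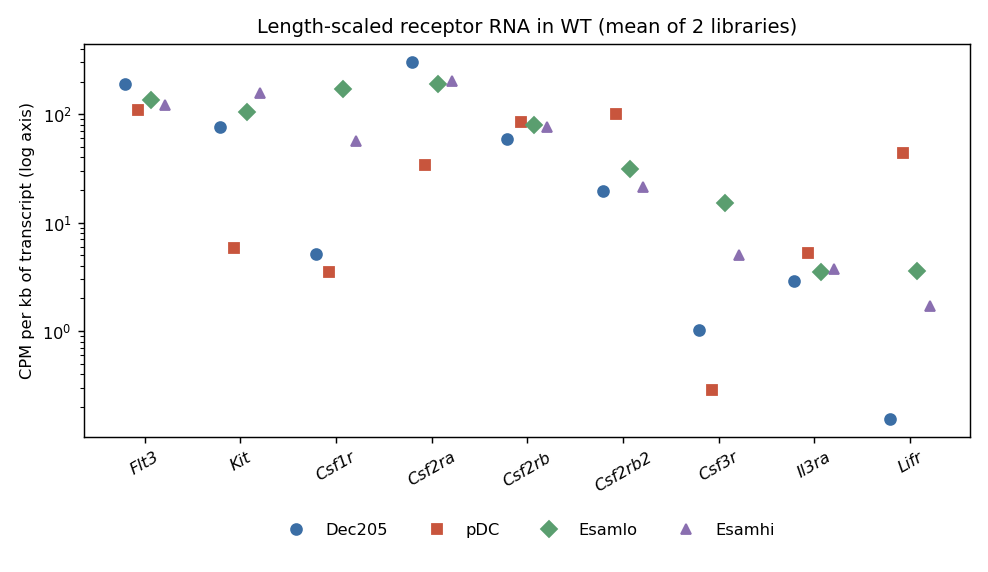
WT levels of the 9 receptor genes in CPM per kilobase of transcript (log axis), each symbol the mean of 2 libraries of 1 population. In Dec205 cells Csf2ra (304) lies above both beta chains, whereas in pDC it (33.9) lies below them.

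Most of the receptors had no called change between CKO and WT cells. In the comparison of CKO with WT, 2 of 9 members were called in Dec205 cells, where 6.78% of all tested genes were called, 0 of 9 in pDC (1.85%), 2 of 9 in Esamlo (0.551%) and 1 of 9 in Esamhi (0.877%). In the average over the 4 populations 2 of 9 were called (5.82%). All these calls belonged to Csf2rb2, which rose, and Lifr, which fell. The 0 in pDC is from edgeR, where the unadjusted p was 0.00262 for Csf2rb2, 0.05 to the digits kept for Flt3 and higher for the other members, and DESeq2 called 1 member there, Csf2rb2. The test for a difference of the CKO effect between populations called the same 2 genes (2 of 9, against 2.44% of all genes). The median log2 fold change of the 9 genes was below 0 in Dec205 (-0.14) and pDC (-0.25) and above 0 in Esamlo (0.08) and Esamhi cells (0.27), while that of all genes was between 0 and 0.01.

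Csf2rb2 was higher in both CKO than in both WT libraries of every population. In Dec205 cells it went from 94.7 and 92.7 CPM to 175 and 159 CPM, in Esamlo from 142 and 151 to 261 and 271 CPM, and in Esamhi from 105 and 96.3 to 224 and 218 CPM. These were rises of 1.78-fold in Dec205 (log2 0.83, SE 0.094, adjusted p = 0.000195), 1.82-fold in Esamlo (log2 0.86, SE 0.093, adjusted p = 0.0006) and 2.2-fold in Esamhi (log2 1.13, SE 0.094, adjusted p = 3.4e-05). All 3 calls were also made without each of the 4 libraries concerned in turn. In pDC, where Csf2rb2 is highest in WT, the libraries labelled CKO were at 616 and 585 CPM against 510 and 437 CPM, a log2 difference of 0.34 with a 95% interval from 0.14 to 0.54 that was not called (adjusted p = 0.0987; 0.0226 with DESeq2). Over the 4 populations the average was a 1.73-fold rise (log2 0.79, SE 0.046, adjusted p = 5.98e-07).

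The Csf2rb2 effect differed between the populations (adjusted p = 0.0247), but not when both beta genes, described together below, were counted as 1 feature (adjusted p = 0.557). The test of Csf2rb2 alone missed the threshold in 8 of the 16 fits that left out 1 library, namely without pDC WT replicate 1 (0.0875), pDC CKO replicate 1 (0.0746) or 2 (0.118), Esamlo CKO replicate 1 (0.0509) or 2 (0.0536), Esamhi WT replicate 2 (0.0824), or Esamhi CKO replicate 1 (0.0801) or 2 (0.0677). The CKO level of Csf2rb2 in Dec205, Esamlo and Esamhi cells, at 159 to 271 CPM, stayed below every pDC library.

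**Figure D3:**
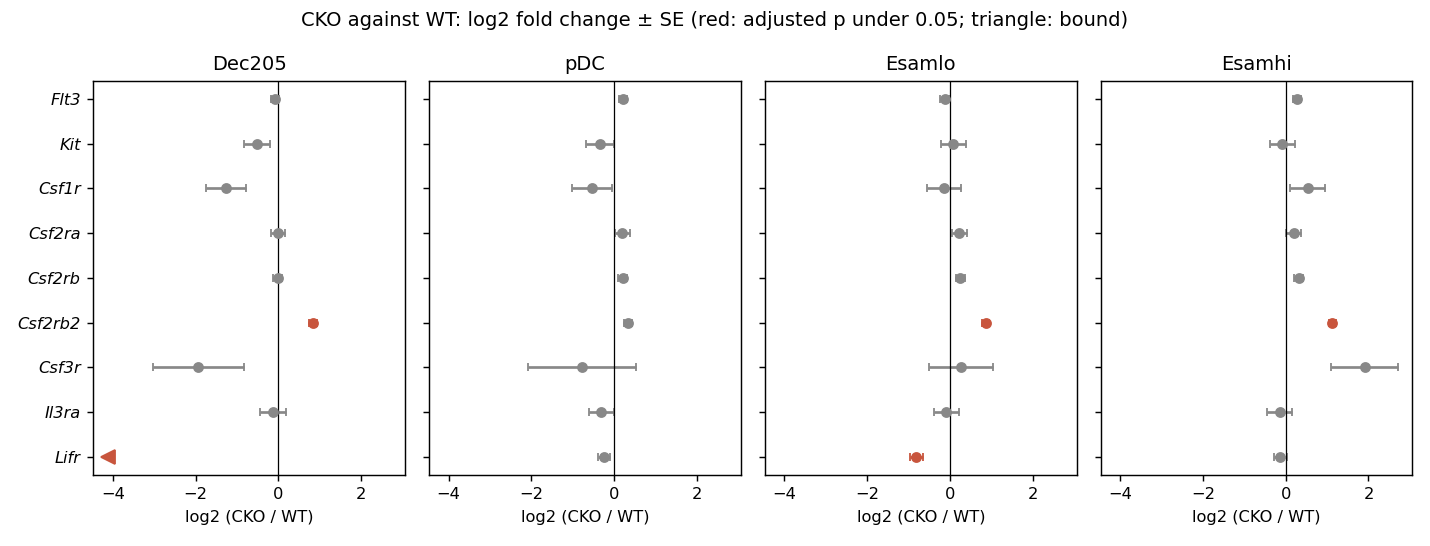
Log2 fold change of CKO against WT for the 9 receptor genes in each population, with bars of 1 SE from the edgeR fit; red marks adjusted p under 0.05, and the triangle is the bound of at least 17.5-fold lower for Lifr in Dec205 cells. Red points are Csf2rb2 in Dec205 (0.83), Esamlo (0.86) and Esamhi (1.13), and Lifr in Dec205 and Esamlo (-0.81).

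Csf2rb did not follow to the same extent. It was at 306 and 274 CPM in WT and 259 and 313 CPM in CKO Dec205 cells, overlapping (log2 difference -0.02, SE 0.11). The CKO libraries lay above the WT libraries in the other 3 populations: 495 and 463 against 447 and 379 CPM in pDC, 450 and 485 against 391 and 395 CPM in Esamlo, and 457 and 471 against 393 and 356 CPM in Esamhi. None was called (log2 0.21, 0.25 and 0.31, adjusted p = 0.537, 0.587 and 0.392), nor was the average over the 4 populations (log2 0.19, SE 0.054, adjusted p = 0.065). That average passed the threshold with DESeq2 (0.0154), with library sizes not scaled by TMM (0.0365), without Dec205 CKO replicate 1 (0.0271) or pDC WT replicate 1 (0.0357), and over the 3 populations other than Dec205 (0.0468).

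The share of Csf2rb2 in the counts of both beta genes gives the balance within each library. In WT it was 23.7% and 25.3% in Dec205, 26.7% and 27.6% in Esamlo, 21.1% and 21.3% in Esamhi, and 53.3% and 53.5% in pDC. In CKO it was 40.3% and 33.6% in Dec205, 36.7% and 35.9% in Esamlo, 32.9% and 31.7% in Esamhi, and 55.4% and 55.8% in pDC. Both CKO shares lay above both WT shares in 4 of 4 populations, and the exact (Clopper-Pearson) 95% intervals, which cover counting error only, did not overlap even in pDC, where they ran up to 54.3% in WT and from 54.8% in CKO. The log2 ratio of Csf2rb2 to Csf2rb counts was 0.61 higher in CKO on average over the 4 populations, with a two-sided exact permutation p = 0.00154, the smallest that the 1296 assignments within populations allow. By population the difference was 0.85 in Dec205, 0.83 in Esamhi, 0.61 in Esamlo and 0.13 in pDC. No source used here says how reads that fit both genes were counted. Counted as 1 feature, both genes together rose in Esamhi (log2 0.53, SE 0.091, adjusted p = 0.0177) and on average (log2 0.37, SE 0.045, adjusted p = 0.000272), but were not called in Dec205 (log2 0.24, adjusted p = 0.138) or Esamlo (log2 0.44, adjusted p = 0.0565).

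**Figure D4:**
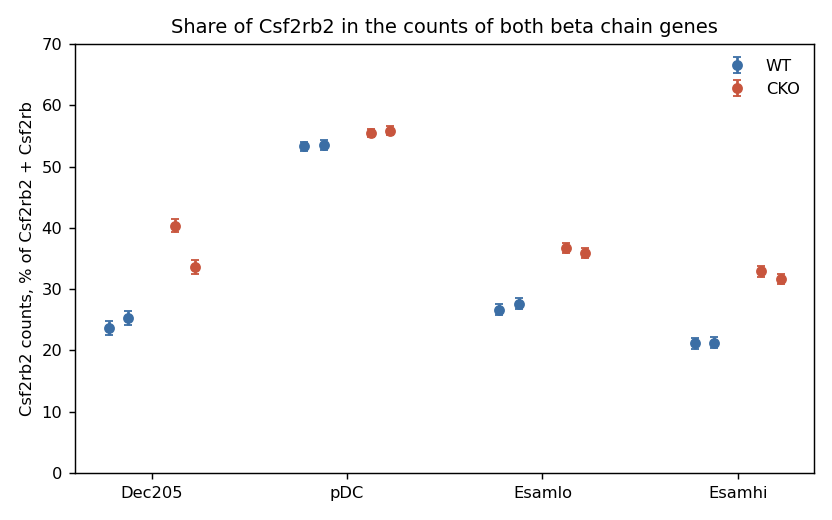
Share of Csf2rb2 in the summed counts of Csf2rb2 and Csf2rb, in percent, for each library (blue WT, red CKO) with exact 95% intervals for counting error. CKO shares of 31.7% to 40.3% stand above WT shares of 21.1% to 27.6% in Dec205, Esamlo and Esamhi cells, and in pDC the shares are 55.4% and 55.8% against 53.3% and 53.5%.

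Markers of other cell types differed in some of the same libraries as Csf2rb2. The summed level of 10 B cell genes was 137 to 165 CPM in WT and 363 to 649 CPM in CKO Dec205 cells, 212 to 293 against 321 to 779 CPM in Esamlo, and 162 to 181 against 212 to 276 CPM in Esamhi cells. In pDC it was 158.7 to 178.4 CPM in WT and 188.4 to 264.5 CPM in the libraries labelled CKO. Without Dec205 CKO replicate 1, the CKO library with the higher B cell sum in Dec205, the Csf2rb2 rise in Dec205 cells was 0.77 on the log2 scale. The Dec205 CKO library that remained had a B cell sum of 363 CPM, still above both WT libraries. Leaving out replicate 1 thus did not remove the difference in B cell genes. The summed level of 11 monocyte genes was 1142 to 1267 CPM in WT and 2836 to 3633 CPM in CKO Dec205 cells, and 935 to 1055 against 1678 to 1836 CPM in Esamhi cells. In Esamlo cells, where Csf2rb2 also rose, the monocyte sums overlapped, at 3934 to 4493 CPM in WT and 3999 to 4660 CPM in CKO. In pDC they were 3406 to 3440 CPM in WT and lower, 2846 to 3199 CPM, in the libraries labelled CKO. Most of the difference in Dec205 cells was Plac8, at 308 and 340 CPM in WT and 1844 and 2117 CPM in CKO, and without it the sums were 960 and 803 against 991 and 1516 CPM. Without Plac8 and Lyz2 they were lower but still separate, at 134 and 154 CPM in WT and 204 and 246 CPM in CKO. In the same cells Ms4a6c was at 27.7 and 31.3 CPM in WT and 94.3 and 107 CPM in CKO. Ms4a4c, Ly6c2 and Ccr2 were also higher in both CKO libraries. Cd14 was lower, at 65.7 and 72.3 CPM in WT and 20.6 and 38.6 CPM in CKO. In Esamhi cells the list without Plac8 and Lyz2 overlapped, at 408 and 492 CPM in WT and 496 and 458 CPM in CKO. The part of B cells or monocytes in the Csf2rb2 level was not tested.

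The promoter of Csf2rb2 is shown because it is the member called in the most comparisons of CKO with WT, and because Etv6 is an ETS factor, a family that binds DNA around the core GGAA. The 250 bases before the RefSeq start (GRCm38.p6, minus strand, chr15:78305722-78305971) read 5′ to 3′ as follows, with every GGAA in capitals, here only as its reverse complement TTCC.
Csf2rb2 promoter: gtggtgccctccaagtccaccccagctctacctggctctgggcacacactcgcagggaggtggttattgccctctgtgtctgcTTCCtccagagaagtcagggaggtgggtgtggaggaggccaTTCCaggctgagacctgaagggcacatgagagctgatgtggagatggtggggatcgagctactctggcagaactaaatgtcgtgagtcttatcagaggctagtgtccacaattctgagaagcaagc
GGAA occurred 0 times on the printed strand and 2 times on the other, and 93.4% of 32851 mouse promoter windows of the same length held it on either strand. One of the 2 lay within GAGGAAG, which 10.6% of windows held. The longer CCGGAAGT, which also contains GGAA and was in 2.88% of windows, was in no window of the 7 members that had an entry (Flt3, Kit, Csf2ra, Csf2rb2, Csf3r, Il3ra and Lifr). Lifr had 2 windows, at chr15:7129322-7129571 and chr15:7140292-7140541, with 0 GGAA on either strand in each. Both lie inside the annotated gene, which starts at chr15:7090610, and the bases before that start were not read. All these motif counts are matches of letters within 250 bases, not measured sites.

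Lifr was the other member with a called change. In Dec205 cells it was at 1.14 and 1.83 CPM in WT, 42 counts in all, and had 0 counts in both CKO libraries. Set against the floor of 3 counts over the group, CKO was at least 17.5-fold lower (adjusted p = 0.00021). The WT level in this population is thus itself low, and the fit on the 4 Dec205 libraries alone did not make the call (adjusted p = 0.253). In Esamlo cells Lifr went from 31.1 and 37.5 to 19.6 and 19.6 CPM, a 1.75-fold fall (log2 -0.81, SE 0.15, adjusted p = 0.0486). The groups did not overlap, but the call was lost when any 1 of the 4 libraries was left out (adjusted p from 0.0726 to 0.413, log2 between -0.93 and -0.67). In pDC the libraries labelled CKO were at 363 and 341 CPM against 379 and 461 CPM (log2 -0.25, SE 0.14, adjusted p = 0.612), and in Esamhi cells at 16.4 and 13.8 against 15.5 and 17.4 CPM, overlapping (log2 -0.13, SE 0.16).

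The effect on Lifr differed between the populations (adjusted p = 0.00384), but not when Dec205 was left out (adjusted p = 0.505, an alternative chosen after seeing the data). The average over the 4 populations was called (adjusted p = 7.61e-05), yet its fitted size rests on the zero counts in Dec205; over the other 3 populations it was a fall of 0.40 on the log2 scale (SE 0.089, adjusted p = 0.0349). Because Lifr is high in pDC, pDC markers were read beside it. In Dec205 cells the summed level of 10 pDC genes was 385 to 386 CPM in WT and 525 to 631 CPM in CKO. Ly6d was at 19.6 and 20.7 CPM in WT and 148 and 52.7 CPM in CKO, and Irf7 at 176 and 160 against 244 and 256 CPM. Siglech, Bst2, Tcf4, Pacsin1 and Cox6a2 were also higher in both CKO libraries. Ccr9 was lower, at 79.3 and 99.0 CPM in WT and 38.0 and 66.6 CPM in CKO. Tlr7 overlapped, and Klk1 was at most 0.308 CPM. In Esamlo cells the 10 genes summed to 393 to 433 CPM in WT and 440 to 499 CPM in CKO. Siglech was at 6.82 and 5.84 CPM in WT and 4.4 and 3.73 CPM in CKO, and Cox6a2 at 0.398 and 0.664 against 20.2 and 12.5 CPM. The part of pDC in the Lifr levels of Dec205 and Esamlo cells was not tested.

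Flt3 and Kit were not called in any population. Flt3 was at 582 and 739 CPM in CKO Dec205 cells, on both sides of the WT libraries (log2 -0.09, SE 0.10). The pDC libraries labelled CKO, at 486 and 456 CPM, and the Esamhi CKO libraries, at 525 and 544 CPM, lay above their WT libraries (log2 0.22 and 0.27, adjusted p = 0.468 and 0.481), and those of Esamlo, at 428 and 486 CPM, lay below (log2 -0.13, adjusted p = 0.906). Flt3 shifts larger than 0.49 on the log2 scale lay outside the 95% interval in each population. Kit was at 281 and 276 CPM in CKO Dec205 cells, below both WT libraries (log2 -0.52, SE 0.31, adjusted p = 0.35). In CKO Kit was at 33.6 and 14.6 CPM in pDC, 580 and 569 CPM in Esamlo, and 723 and 840 CPM in Esamhi, where only the Esamlo libraries were separate from WT.

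Csf1r and Csf3r were higher in both CKO than in both WT libraries of Esamhi cells without being called. Csf1r was at 397 and 366 CPM in CKO against 271 and 258 CPM in WT (log2 0.53, SE 0.42, adjusted p = 1). Csf3r was at 63.5 and 69.1 CPM against 13.3 and 21.8 CPM (log2 1.91, SE 0.81, adjusted p = 0.583), which brought it to the level of Esamlo cells, at 63.2 and 63.0 CPM in CKO. The spread for both genes was estimated over all 8 groups, and the fit on the 4 Esamhi libraries alone called both (adjusted p = 0.00613 for Csf1r and 0.000199 for Csf3r).

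Lyz2, a gene of monocyte-like cells, was also higher in those libraries, at 286 and 263 CPM in WT and 765 and 706 CPM in CKO Esamhi cells. It carried the sum of 6 genes of Esamlo and monocyte-like cells, which was 390 to 444 CPM in WT and 808 to 916 CPM in CKO. The sums of the other 5 overlapped, at 103 and 181 CPM in WT and 150 and 103 CPM in CKO. Among them Cx3cr1 was separate, at 14.7 and 14.3 CPM in WT and 32.7 and 26.0 CPM in CKO, as was the lower Ccr2, while Cd14, Clec4a3 and Clec12a overlapped. Esam was at 144 and 151 against 131 and 134 CPM. Csf3r is also a neutrophil gene, and 12 neutrophil genes summed to 67.4 to 99.8 CPM in WT and 117 to 128 CPM in CKO. Most of that was Mmp9, which overlapped; the other 11 summed to 10.7 and 12.7 CPM in WT and 47.7 and 48.7 CPM in CKO. Ngp, a neutrophil granule gene, was at 1.12 and 1.76 CPM against 14.4 and 17.2 CPM, S100a8 at 2.02 and 2.54 against 8.68 and 9.47 CPM, and Ly6g at most 0.339 CPM in any of these 4 libraries. The part of these cells in the Csf1r and Csf3r levels was not tested. In Esamlo cells Csf1r was at 730 and 743 CPM in CKO, below both WT libraries, and the Csf3r difference was 0.27 on the log2 scale (SE 0.78). The 11 neutrophil genes other than Mmp9 were higher in CKO there too, at 26.1 and 31.1 CPM in WT and 52.6 and 53.2 CPM in CKO.

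At the low end, Csf1r in Dec205 cells was at 9.02 and 11.3 CPM in CKO against 8.80 and 39.5 CPM in WT (log2 -1.27, adjusted p = 0.143). This value depended on single WT libraries: it was 0.20 without WT replicate 2 and -1.96 without WT replicate 1 (adjusted p = 0.00125). In pDC Csf1r was at 8.09 and 14.6 CPM in CKO. Csf3r was at 0 and 2.01 CPM in CKO Dec205 and 1.00 and 0.161 CPM in CKO pDC libraries.

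Csf2ra and Il3ra, the alpha chains, were not called in any population. Csf2ra was at 483 and 630 CPM in CKO Dec205, 60.6 and 81.9 CPM in CKO pDC, 367 and 458 CPM in CKO Esamlo, and 428 and 427 CPM in CKO Esamhi cells, and only the last were separate from WT. Its average difference was 0.15 on the log2 scale (SE 0.088, adjusted p = 0.427). Il3ra was at 5.64 to 10.2 CPM in all CKO libraries, with an average difference of -0.17 (SE 0.15, adjusted p = 0.646). CKO and WT libraries did not overlap for 3 of the 9 members in Dec205 cells (41.3% of all tested genes), 5 in pDC (37.4% of all genes), 7 in Esamlo cells (44.2%) and 6 in Esamhi cells (44.2%).

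The pathway around the receptors was read from lists of ligands, partner chains and signalling genes. Their counts stand beside the shares of all tested genes called in CKO against WT, 6.78% for Dec205, 1.85% for pDC, 0.551% for Esamlo and 0.877% for Esamhi cells. Of 13 ligands, 7 passed the filter and 0 were called in any comparison of CKO with WT. Csf2, Csf3 and Il3, which encode GM-CSF, G-CSF and IL-3, had at most 0.114 CPM in any library, so these sorted cells themselves held next to no RNA for them. Osm, whose product also signals through Il6st, was at 14.4 and 17.5 CPM in WT and 40.2 and 31.0 CPM in CKO Esamhi cells without being called. Lif was at 8.80 and 5.34 CPM in WT Dec205 cells and at 0 in pDC, where its receptor is highest. Of 6 partner chains, 4 passed the filter and 0 were called.

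Among 20 JAK kinases, STATs and proximal adaptors, 2 were called in pDC, 1 in Esamlo and 1 in Esamhi cells, all higher in CKO. In Dec205 cells 3 were called (1 higher, 2 lower). The kinase Jak3 rose (log2 0.91, adjusted p = 0.0268). The adaptor Shc1 fell from 184 and 202 to 111 and 121 CPM (adjusted p = 0.000924), and Pik3r1, the regulatory subunit of PI3 kinase, from 261 and 281 to 132 and 164 CPM (adjusted p = 0.0111). In pDC Sos1, which activates Ras, was 1.82-fold higher in the libraries labelled CKO (adjusted p = 0.0371). The median log2 fold change of the list in Dec205 cells was -0.14, against 0 for all genes.

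Of 17 inhibitors and feedback genes, 1 was called in Dec205, about the share of all genes, where Spred1, an inhibitor of the Ras pathway, fell by 0.72 on the log2 scale (adjusted p = 0.0243), and 1 in pDC. The latter was Socs2, whose product restrains JAK and STAT signalling, at 1.34 and 1.47 CPM in WT and 0.317 and 0.161 CPM in the libraries labelled CKO (adjusted p = 0.0128). The last value equals the floor of 3 counts in that library, so this call rests on few counts. No inhibitor was called in Esamlo or Esamhi. Of 12 survival and division genes, 1 was called in each of Dec205, pDC and Esamhi and 0 in Esamlo. Bcl2, which protects from cell death, rose in Dec205 cells from 16.7 and 19.1 to 35.1 and 34.9 CPM (adjusted p = 0.00324), Cd24a was 2.44-fold higher in pDC (adjusted p = 0.000637), and the kinase gene Pim3 rose in Esamhi cells from 221 and 250 to 384 and 394 CPM (adjusted p = 0.0219).

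Of 18 other cytokine receptors, 5 were called in Dec205 cells, 1 higher and 4 lower, against 6.78% of all genes, and 0 in each other population, where under 2% of all genes were called. Il13ra1, a receptor chain for IL-13, fell from 85.7 and 70.3 to 21.7 and 30.3 CPM (log2 -1.59, SE 0.18, adjusted p = 0.000251). Il10ra (-0.44) and Il10rb (-0.55), the chains of the IL-10 receptor, and Ifngr2 (-0.36), of the interferon gamma receptor, also fell, and Ifnar2 (0.59), of the type I interferon receptor, rose. Of 19 tested transcription factors that have been described at these receptor genes, Etv6 itself included, 6 were called in Dec205 (4 higher, 2 lower), 0 in pDC and Esamlo, and 1 in Esamhi. In Dec205 cells Runx2 rose from 11 and 19.5 to 111 and 159 CPM (adjusted p = 1.25e-05), Cebpa (1.10), Tcf4 (1.06) and Spib (0.91) rose on the log2 scale, and Runx1 fell by 0.76 (adjusted p = 0.00768). In Esamhi cells Irf8 rose from 83.2 and 76.1 to 152 and 126 CPM (adjusted p = 0.00149).

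Across the 16 libraries the genes whose log2 CPM ran most like each member's were found among 8556 candidates, as a description over libraries that share 4 populations. For Lifr they were L3mbtl3 (r = 0.986), Prkcd (0.981) and Yeats4 (0.967), and for Csf2rb2 Hpse (0.973), Mndal (0.96) and Cd69 (0.957). Kit ran with Kcnip3 (0.992), Nav1 (0.99) and Lcp1 (0.989), and Csf2ra with Treml4 (0.99), Cxcl16 (0.99) and Id2 (0.989). Csf1r ran with Pirb (0.97), S100a4 (0.968) and Il6st (0.968), and Flt3 with Tceb1 (0.924), Bcl2l14 (0.921) and Vps9d1 (0.919). For Csf3r they were Sgk3 (0.946), Rasa4 (0.941) and Mtmr6 (0.935), for Csf2rb Rhoq (0.938), Tacc1 (0.935) and Mier3 (0.929), and for Il3ra Smarcd1 (0.92), Slc25a40 (0.862) and Timm21 (0.854).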

How the data were processed

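Gene counts were used as deposited by the authors, 1 table for 16 libraries made with a SMART-seq v4 kit, per the labels' protocols. The submitters' processing notes name bcl2fastq, Trimmomatic 0.36, Bowtie2 2.2.9 and the build mm10; the counting program and its use of strand and of reads with several matches are not stated in any source used here. Reads of genes that overlap a member (Flt3, Csf1r, Il3ra, Csf2rb and Csf2rb2 have such a gene in GENCODE) cannot be told apart from it without strand.

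Counts were tested with edgeR 4.0.16 (R 4.3.3): TMM scaling, the filterByExpr filter, 1 coefficient per group over all 16 libraries, quasi-likelihood F tests with 8 residual degrees of freedom, and Benjamini-Hochberg adjustment over 13790 genes. A gene was called at adjusted p under 0.05. Tests were two-sided. Log2 CPM used a prior count of 2. On simulated counts for CKO against WT in Dec205 cells (13788 genes), 56% of 100 genes changed 2-fold and 90% of 100 changed 4-fold were recovered, with 3 false calls. The changed genes were drawn only from those above a minimum mean count over the 16 libraries. Counts were simulated with the fitted spread of each gene, so these shares hold under the model's own assumptions.

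The members and the gene lists were chosen with earlier results of these data known. Named were all members, list genes called in CKO (a few are not reported here), Etv6, and for each member the 3 genes with the highest Pearson correlation (mean log2 CPM of at least 3). Promoters are from RefSeq GRCm38.p6, coding sequences and lengths from GENCODE; a gene's length is that of the transcript with its longest coding sequence. Alternatives were DESeq2 1.42.0, other scalings and filters, a replicate block, only the 4 libraries compared, both beta genes as 1 feature, and each library left out.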

Additional observations from a re-analysis of the deposited data

Results flagged for a closer look

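The difference between CKO and WT varied between the 4 populations for 2 of the 9 receptors in the joint test of the interaction terms (edgeR). Genotype and sex cannot be told apart in it. For Csf2rb2 the adjusted p was 0.0247: the log2 difference was 0.83 in Dec205, 0.86 in Esamlo and 1.13 in Esamhi cells and 0.34 in pDC (the last not called), the population with the highest WT level. That call depended on single libraries, as given above, and was not made with both beta genes as 1 feature (adjusted p = 0.557). For Lifr the adjusted p was 0.00384: counts went from 42 to 0 in Dec205 cells, and the log2 difference was -0.81 in Esamlo, -0.25 in pDC and -0.13 in Esamhi cells. The Lifr call was not made over the populations other than Dec205 (adjusted p = 0.505).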

How the results depend on the processing

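The number of members called in CKO was within 1.5 times of the reported count except as follows. In pDC it was 1 rather than 0 with DESeq2. With only the 4 libraries compared it was 1 in Dec205 and 1 in Esamlo (2 with all 16 libraries) and 3 in Esamhi (1 with all 16), and Esamlo against Esamhi in WT gave 5 rather than 3. The test between populations gave 1 over the 3 populations without Dec205. Leaving out 1 library gave 1 in Esamlo, 1 to 3 in the test between populations, 3 to 6 for Dec205 against Esamhi in WT and 1 to 2 for Esamlo against Esamhi in WT. Some differences changed sign (with the other end of the range over left-out libraries in brackets): Csf2rb in CKO Dec205 was 0.03 without TMM scaling, 0.01 with only 4 libraries, 0.07 without Dec205 WT replicate 1 and 0.12 without Dec205 CKO replicate 1 (-0.16), and Flt3 in CKO Dec205 was 0.08 without that CKO replicate (-0.27). Flt3 in pDC against Esamhi was 0.00 without TMM scaling, Csf2rb in pDC against Esamlo was -0.06 without pDC WT replicate 1 (0.19), and Csf2ra in Esamlo against Esamhi was 0.03 without Esamlo WT replicate 1 and 0.06 without Esamhi WT replicate 2 (-0.23). Csf1r in Dec205 without Dec205 WT replicate 2 was 0.20 for CKO against WT (-1.96) and -0.89 against pDC (1.27). With no filter on low counts the WT calls for Il3ra in Dec205 against pDC (adjusted p = 0.0785), Kit in Dec205 against Esamhi (0.0681) and Csf1r in Esamlo against Esamhi (0.165) were lost, and without TMM scaling that for Flt3 in pDC against Esamlo (0.0794). The cause was not tested. Replicate numbers did not pair the libraries (correlations of deviations from -0.07 to 0.12 over 28 pairs of groups, 2 over 0.1). With the replicate number as a block, no count of members called moved by over 1.5 times, and the call gained among the reported values was Csf3r in Dec205 against Esamhi in WT (log2 -2.38, adjusted p = 0.0457). Over all genes, CKO against WT gave 935, 255, 76 and 121 calls in Dec205, pDC, Esamlo and Esamhi, against 1712, 553, 248 and 301 with DESeq2 and 136, 91, 126 and 578 with only the 4 libraries compared. The average gave 802 (1348 with DESeq2, 407 without Dec205), the test between populations 337 (1074 and 109), and Esamlo against Esamhi in WT 801 (1396 with DESeq2, 1561 with 4 libraries). Csf3r in Dec205 and pDC rests on 22 to 102 counts a group, and Lifr in WT Dec205 on 42.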
